A study of Homo sapiens with 4 samples.

Results

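The genes described here are 10 RNA-binding genes of stress granules and their relatives, namely G3BP1, G3BP2, CAPRIN1, TIA1, TIAL1, ATXN2, ATXN2L, PABPC1, HABP4 and SERBP1. They were listed with their array values known, because G3BP2 and HABP4 were higher in siPATZ1-treated than in siCTRL-treated cells, and the rule sets each of these against its paralog, G3BP1 and SERBP1. Their difference between the groups is therefore given as a description, with no test. Of the 47323 probes on the array, 26 were annotated to 9 of the 10 genes, and 19 of these, from 8 genes, were detected, that is, had a detection p-value under 0.01 on both siPATZ1 or both siCTRL arrays. The detected genes numbered 9435 in all. SERBP1 had no probe in the annotation used and was not analysed here, so HABP4 could not be set against it.

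By the labels, RNA came from HepG2, a human liver cancer cell line. One group was transfected with siRNA against PATZ1 (siPATZ1) and the other with a scrambled control siRNA (siCTRL), in each case by reverse transfection of 60 pmol with Lipofectamine RNAiMax and 48 h of culture. Each group had 2 Illumina HumanHT-12 v4 arrays. All cells therefore carried an siRNA, and untransfected cells and a second siRNA against PATZ1 were not analysed here. The sources call the arrays duplicates and do not say that each came from its own culture, so the p-values rest on a spread that may be technical only. PATZ1 encodes a zinc finger transcription factor that binds G-rich DNA, and its transcript was not detected with any of its 3 probes (lowest detection p-value 0.0649), so the arrays do not check the knockdown.

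Stress granules are cytoplasmic assemblies of messenger RNA and protein that form when translation initiation stalls, most often after a kinase phosphorylates the initiation factor subunit eIF2alpha. The paralogs G3BP1 and G3BP2 bind RNA and drive the assembly, and CAPRIN1 binds G3BP. TIA1 and TIAL1 bind U-rich RNA and carry prion-like domains, while ATXN2 and ATXN2L associate with the poly(A)-binding protein PABPC1. HABP4 and SERBP1 are paralogous RNA-binding proteins that are known to sit on ribosomes that are not translating. In liver cancer cells, as in other cells, granules are seen after heat, oxidants or amino acid shortage. The protocol of this series names no stressor besides the transfection.

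Between 14222 and 15980 probes were detected on an array, 15980 and 15236 with siPATZ1 against 14222 and 14384 with siCTRL. Values below are log2 intensities after background correction and quantile normalization, unless they are called signal, which is the bead intensity as deposited. A log2 fold change is siPATZ1 minus siCTRL, with its standard error (SE). The SE is from the fit across all detected probes for the 10 listed genes, and from the fit across the 9435 genes for other genes. Of the hepatocyte markers, 3 of 13 with a probe were detected on all 4 arrays, namely ALB, KRT8 and KRT18. AFP, the alpha-fetoprotein gene, was not detected, at a signal of 75.4 to 77.6. The dimmer ALB probe was not detected either, at 72.1 to 78.5. With AFP and most of the 13 not detected on all arrays, these markers do not bear out the HepG2 label. The identity of the cells rests on that label and was not tested. The summed signal of the 23 hepatocyte marker probes was 7620 and 7996 on the siPATZ1 arrays, against 6957 and 5676 on the siCTRL arrays. The KRT8 probe alone gave 5119 and 5349 of it with siPATZ1, against 4613 and 3493 with siCTRL, and the brighter ALB probe gave 165 and 194 with siPATZ1, against 202 and 157 with siCTRL. The leukocyte marker CD68 was detected on all arrays. The 12 leukocyte probes summed to 2119 and 2129 with siPATZ1, against 2025 and 2193 with siCTRL. No marker of fibroblasts or endothelium was detected on all arrays. By detection on both arrays of 1 group, 2 of 6 fibroblast and stellate markers and 0 of 5 endothelial markers were kept. Of the 2 fibroblast and stellate markers, 0 passed in limma at an adjusted p under 0.05, and 1 was at least 1.4-fold lower.

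G3BP2 was higher in siPATZ1-treated cells with each of its 3 detected probes. Its brightest probe, ILMN_2381753, had a signal of 2424 and 2413 on the siPATZ1 arrays, against 675 and 886 on the siCTRL arrays. On the normalized scale it had 11.16 and 11.07 with siPATZ1 (mean 11.12, SD 0.06), against 9.35 and 9.81 with siCTRL (mean 9.58, SD 0.32). Both siPATZ1 arrays lay above both siCTRL arrays by at least 1.26, and the siCTRL arrays differed from each other more than the siPATZ1 arrays did. The log2 fold change was 1.54 (SE 0.17), or 2.90-fold. In RNA of a whole culture, more transcript per cell and more cells that carry it cannot be told apart.

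The other G3BP2 probes detected gave changes of similar size. ILMN_1720422 had 9.18 on each of the siPATZ1 arrays, against 7.44 and 7.60 on the siCTRL arrays, a log2 fold change of 1.66 (SE 0.13). ILMN_2381758 had 9.07 and 9.02 with siPATZ1, against 7.87 and 7.74 with siCTRL, a log2 fold change of 1.24 (SE 0.13). These 3 probes are annotated to 1 reference transcript and share their RNA, so they are repeated readings and not replicates. The probe that is annotated to another G3BP2 transcript, ILMN_1759622, was not detected on any array, at a signal of 69.1 and 68.7 with siPATZ1 against 74.1 and 61.1 with siCTRL.

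HABP4, also called Ki-1/57, was higher with both of its probes. ILMN_2107991, the brighter, had a signal of 460 and 568 with siPATZ1, against 168 and 186 with siCTRL. Its normalized values were 8.54 and 8.84 with siPATZ1 (mean 8.69, SD 0.21), against 6.76 and 7.01 with siCTRL (mean 6.88, SD 0.18). The log2 fold change was 1.81 (SE 0.16), or 3.50-fold, the largest among the 19 detected probes of these genes. The siCTRL signals were not far above the median of probes not detected, 82.8 and 83.4 on these arrays. With no background correction HABP4 had 1.38 and G3BP2 1.46, so the rank depends on that step. ILMN_1792384 had 8.09 and 8.28 with siPATZ1, against 6.81 and 6.72 with siCTRL, a log2 fold change of 1.42 (SE 0.13). The siPATZ1 arrays lay above the siCTRL arrays by at least 1.53 with the brighter probe and by 1.28 with the other.

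**Figure D1:**
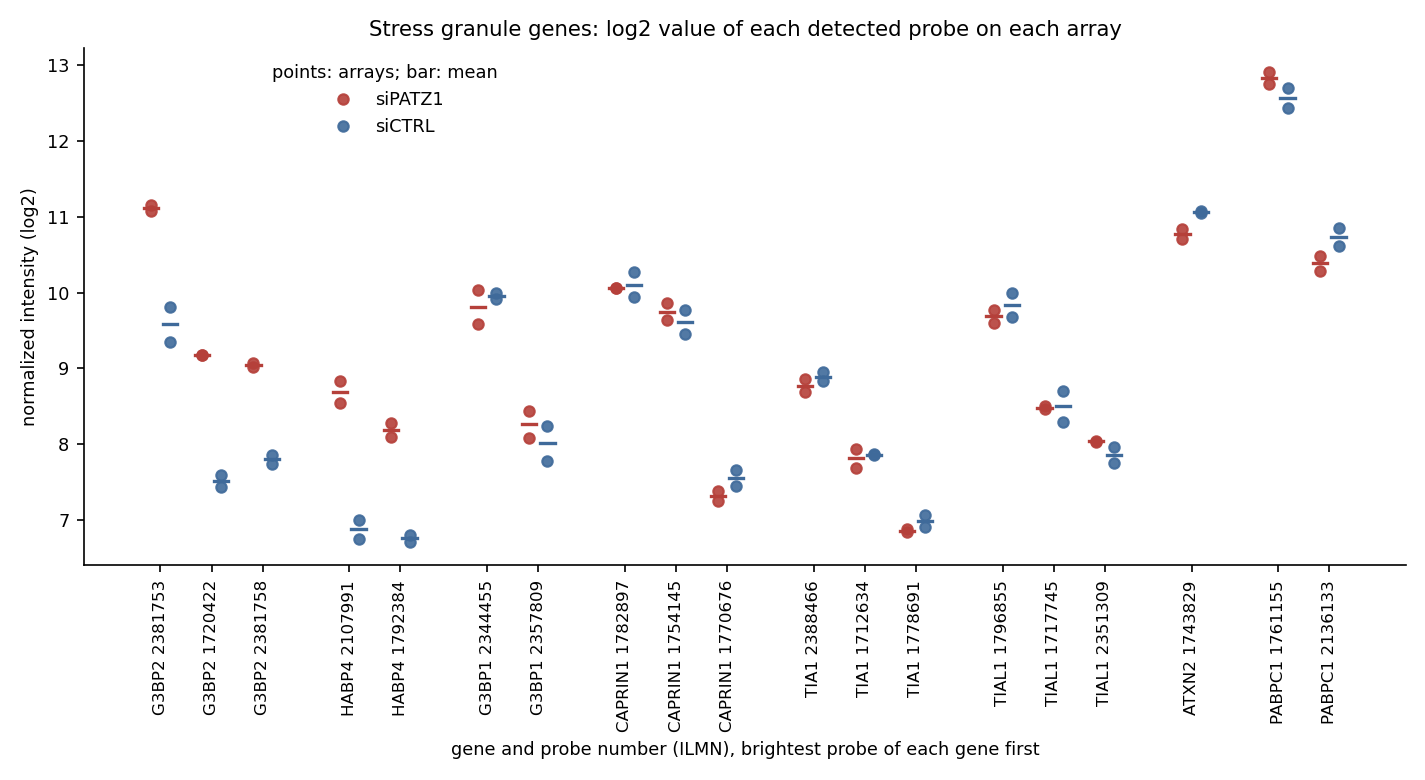
Normalized intensity (log2) of the 19 detected probes of the stress granule genes, with a point for each array and a bar for the mean of the 2 arrays, siPATZ1 left of siCTRL. The 5 probes of G3BP2 and HABP4 have both siPATZ1 points at least 1.15 above both siCTRL points, whereas the points of the other genes lie close together or overlap.

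The promoters of these genes and of their paralogs are shown because PATZ1 is known for binding G-rich sequence. The windows are RefSeq's for GRCh38.p14 and hold 250 bases before the transcription start and 50 after it. Capitals mark GGGAGGG, the G-rich motif searched, on either strand, so that it reads CCCTCCC where it lies on the opposite strand. The windows are chr4:75673108-75673407 for G3BP2 (minus strand, the first of 5 windows), chr5:151771704-151772003 for G3BP1 (plus strand), chr9:96449919-96450218 for HABP4 (plus strand) and chr1:67430353-67430652 for SERBP1 (minus strand).
G3BP2: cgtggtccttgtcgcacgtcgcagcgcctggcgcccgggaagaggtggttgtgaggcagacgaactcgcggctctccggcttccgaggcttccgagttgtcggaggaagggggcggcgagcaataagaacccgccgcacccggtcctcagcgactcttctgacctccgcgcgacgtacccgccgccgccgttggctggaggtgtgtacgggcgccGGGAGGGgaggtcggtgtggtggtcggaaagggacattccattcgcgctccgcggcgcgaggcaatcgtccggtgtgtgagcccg
G3BP1: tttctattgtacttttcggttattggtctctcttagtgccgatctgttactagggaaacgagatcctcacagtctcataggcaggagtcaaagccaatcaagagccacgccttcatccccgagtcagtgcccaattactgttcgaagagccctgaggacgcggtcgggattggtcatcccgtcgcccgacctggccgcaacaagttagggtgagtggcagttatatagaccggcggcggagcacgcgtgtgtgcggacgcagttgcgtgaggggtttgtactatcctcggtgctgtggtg
HABP4: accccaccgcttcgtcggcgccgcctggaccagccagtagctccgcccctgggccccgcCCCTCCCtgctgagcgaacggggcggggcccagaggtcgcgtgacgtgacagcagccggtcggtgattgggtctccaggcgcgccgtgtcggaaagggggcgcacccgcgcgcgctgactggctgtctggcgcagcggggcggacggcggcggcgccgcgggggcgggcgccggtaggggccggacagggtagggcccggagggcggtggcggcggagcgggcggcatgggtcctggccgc
SERBP1: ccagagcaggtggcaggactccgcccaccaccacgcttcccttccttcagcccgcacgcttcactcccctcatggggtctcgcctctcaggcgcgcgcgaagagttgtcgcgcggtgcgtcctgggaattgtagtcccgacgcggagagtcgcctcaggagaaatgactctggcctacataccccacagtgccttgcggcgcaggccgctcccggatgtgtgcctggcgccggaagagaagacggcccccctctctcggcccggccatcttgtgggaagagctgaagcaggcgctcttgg

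The G3BP2 window held 1 match, which began at position -35 from the start, and the HABP4 window held 1 match on the opposite strand at position -191. The windows of the paralogs G3BP1 and SERBP1 held none. A further G3BP2 window, for a start nearby, also held a match, and the other 3 did not. CAPRIN1 held 1 match, at position -24 on the opposite strand, and TIA1, TIAL1 and ATXN2L held none, which makes 3 genes with a match among the 8 with a window. Over all windows, 26.6% held the motif, and over all genes with a window 29.4% had at least 1 that did. G and C made up 69% of the G3BP2 window shown, 55.7% to 66.7% of its other windows, and 79% of the HABP4 window. The paralogs had 55% for G3BP1 and 66.3% for SERBP1. CAPRIN1 had 74%, ATXN2L 72.7%, TIAL1 58% and TIA1 49.7% and 57.7%, so a GC-rich window was not particular to G3BP2 and HABP4. A match is a description of these letters and not a binding site, and binding of PATZ1 was not analysed here.

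G3BP1 differed by less than the spread of the arrays with both probes. Its brighter probe, ILMN_2344455, had 10.03 and 9.58 with siPATZ1, against 9.99 and 9.92 with siCTRL, a log2 fold change of -0.15 (SE 0.17). The other, ILMN_2357809, had 8.44 and 8.09 with siPATZ1, against 7.78 and 8.25 with siCTRL, a log2 fold change of 0.25 (SE 0.20). The groups overlapped with both probes, and the 2 probes, annotated to different transcripts, differed in sign.

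Set against each other on the same array, the paralogs of the G3BP pair changed unequally. The brightest G3BP2 probe minus the brightest G3BP1 probe was 1.13 and 1.49 on the siPATZ1 arrays, against -0.64 and -0.11 on the siCTRL arrays. The difference between the log2 fold changes was 1.68 (SE 0.32, n = 2 arrays per group), a 3.21-fold change in the ratio of their intensities. Over all 6 pairs of detected probes it ran from 0.99 to 1.81, with no overlap between the groups in any of the 6. The pairs share probes and arrays and are repeated readings. Since G3BP2 was listed for being higher, nothing is read from their direction or lack of overlap. The value does not compare the amounts of the 2 transcripts, since the intensities of different probes are not on 1 scale.

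TIA1 and TIAL1, the other pair that could be compared, differed by less than the spread of the arrays. TIA1 minus TIAL1 was -0.92 and -0.91 with siPATZ1, against -1.16 and -0.73 with siCTRL, and the difference between the log2 fold changes was 0.03 (SE 0.22). Over 9 pairs of detected probes it ranged from -0.31 to 0.10, and the groups did not overlap in 2 pairs. ATXN2 could not be set against ATXN2L, which was not detected.

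**Figure D2:**
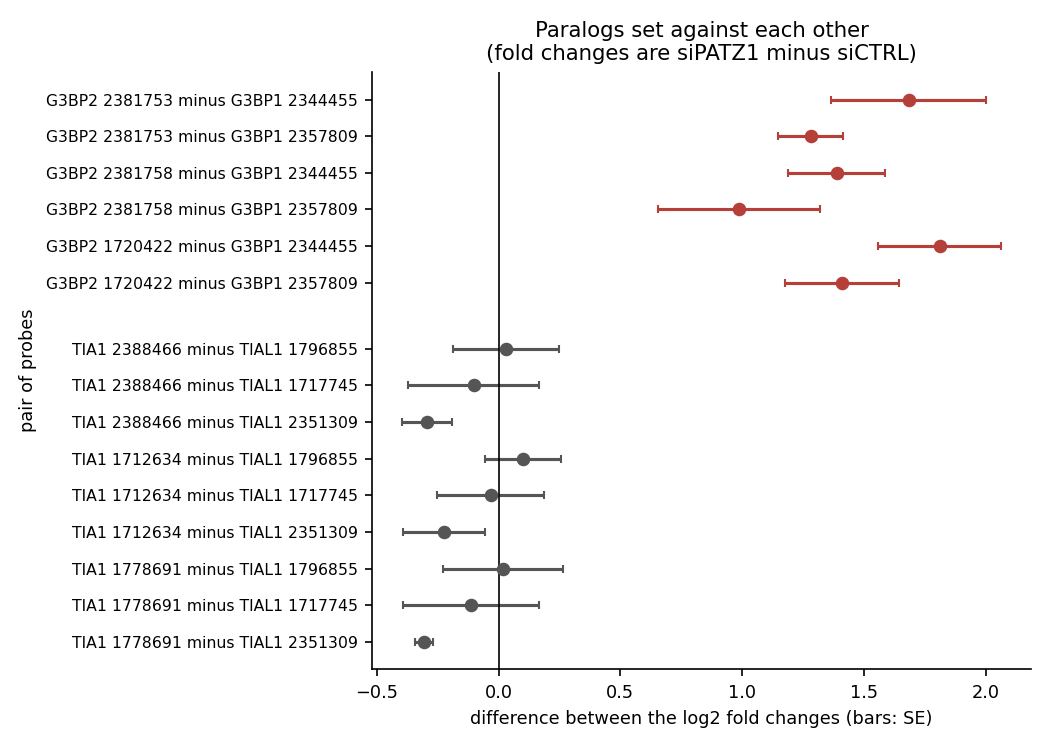
Difference between the log2 fold changes (siPATZ1 minus siCTRL) of paralogs, with bars for the SE over the 2 arrays per group, for each pair of detected probes. The 6 pairs of G3BP2 and G3BP1 lie between 0.99 and 1.81, and the 9 pairs of TIA1 and TIAL1 between -0.31 and 0.10.

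The remaining detected genes had small differences. Over the 14 detected probes of the 6 other genes (G3BP1, CAPRIN1, TIA1, TIAL1, ATXN2 and PABPC1) the log2 fold change ranged from -0.35 to 0.27, at most 1.27-fold in either direction, with 4 probes above 0 and 10 below. CAPRIN1, the G3BP partner, had 10.07 and 10.06 with siPATZ1 for its brightest probe, against 9.94 and 10.27 with siCTRL, and log2 fold changes of -0.04, 0.13 and -0.23 over its 3 probes. TIA1, which binds U-rich RNA and represses translation, had 8.86 and 8.69 with siPATZ1, against 8.83 and 8.95 with siCTRL, and -0.12, -0.05 and -0.13 over its 3 probes. TIAL1, its paralog, had 9.78 and 9.60 with siPATZ1, against 10.00 and 9.68 with siCTRL, with -0.15, -0.02 and 0.18 over the 3 detected of its 4 probes. The groups overlapped with the brightest probe of each of these 3 genes.

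ATXN2, a translation regulator that carries a polyglutamine stretch and binds PABPC1, had 1 probe, with 10.83 and 10.71 on the siPATZ1 arrays against 11.07 and 11.05 on the siCTRL arrays. Its log2 fold change was -0.29 (SE 0.13), and the siPATZ1 arrays lay below the siCTRL arrays by at least 0.22. None of the 5 probes of its paralog ATXN2L was detected, at signals of 67.7 to 122 and a lowest detection p-value of 0.0377.

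PABPC1, which coats the poly(A) tails of messenger RNA, was read differently by its 2 probes. ILMN_1761155 had 12.91 and 12.75 with siPATZ1, against 12.44 and 12.69 with siCTRL, a log2 fold change of 0.27 (SE 0.14). ILMN_2136133 had 10.48 and 10.28 with siPATZ1, against 10.61 and 10.85 with siCTRL, a log2 fold change of -0.35 (SE 0.15). Both siPATZ1 arrays were above both siCTRL arrays with ILMN_1761155 and below them with ILMN_2136133. With probes that differ in sign the direction of PABPC1 is uncertain. PABPC1 has closely similar family members and processed pseudogenes, and whether the probes also read these was not tested.

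**Figure D3:**
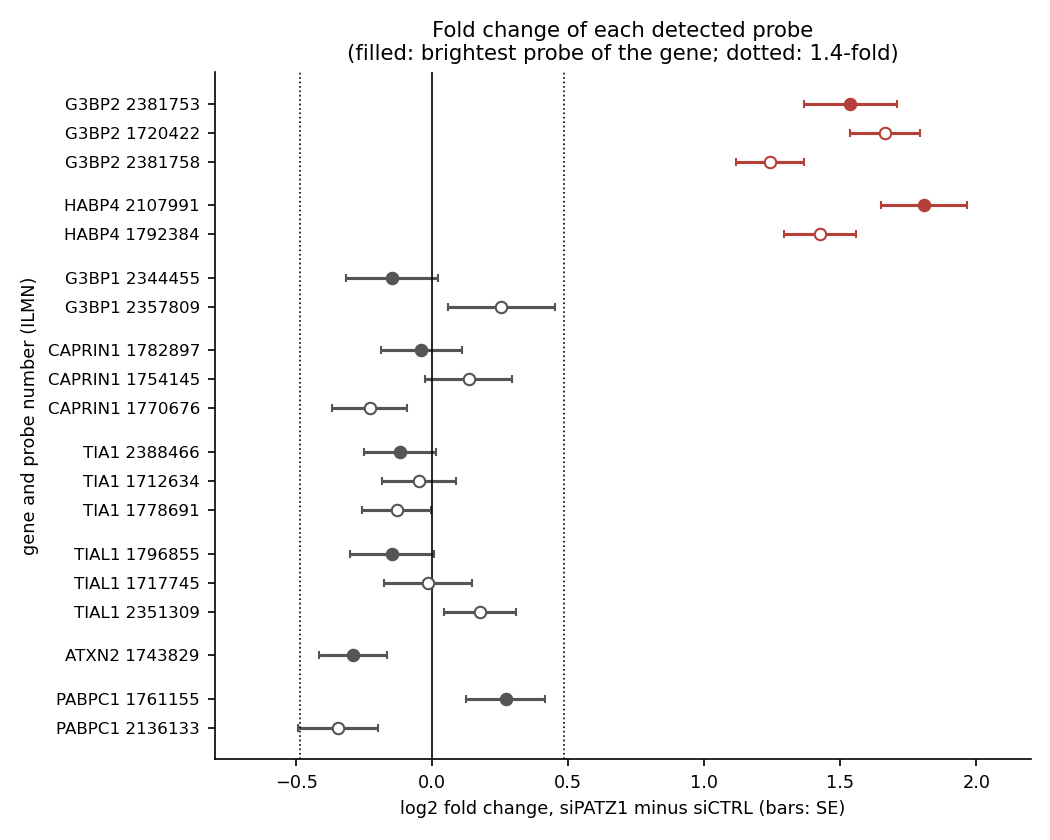
Log2 fold change (siPATZ1 minus siCTRL, bars for the SE) of the 19 detected probes, grouped by gene, with the brightest probe of each gene filled and dotted lines at 1.4-fold. The 5 probes of G3BP2 and HABP4 lie between 1.24 and 1.81, and the 14 probes of the other 6 genes lie between -0.35 and 0.27, inside the lines.

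By gene, 2 of the 8 detected genes were at least 1.4-fold higher, the fold cut-off the study used, and 0 were 1.4-fold lower. Among all 9435 genes 8.64% were 1.4-fold higher and 7.42% lower. By probe, 5 of 19 were 1.4-fold higher, against 9.06% of all 15090 detected probes. The groups did not overlap with 11 of the 19 probes, and they did not overlap with 59% of all detected probes. Since G3BP2 and HABP4 were listed for being higher, nothing is read from these counts. The median log2 fold change was -0.08 over the 8 genes and -0.00 over all genes.

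Another scaling of the arrays turned the sign of small changes, and not that of the 2 large ones. Median scaling in place of quantile normalization put the median of all genes 0.12 above 0. Under it G3BP2 had 1.68 and HABP4 1.94, while G3BP1 had 0.00, CAPRIN1 0.10, TIA1 0.02 and TIAL1 0.01, each of them below the shift of all genes. ATXN2 had -0.16 and PABPC1 0.34 under the same scaling. With the deposited signals that the authors scaled to 1 mean, G3BP2 had 1.53 and HABP4 1.42.

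The genes most like G3BP2 and HABP4 over the 4 arrays were found by the distance between their log2 values after each gene was centred on its own mean, among 9434 genes. Nearest to G3BP2 were ABHD2, a lipid hydrolase (distance 0.11), RHBDL3, a rhomboid family member (0.12), and GSTZ1, an enzyme of tyrosine breakdown (0.16). Nearest to HABP4 were H2BC5, a histone H2B gene (0.17), HDGFL2, a chromatin-binding protein (0.20), and RHBDL3 again (0.34). HDGFL2, which had 8.85 and 8.91 with siPATZ1 against 7.08 and 7.25 with siCTRL, was the one of these that was detected on all 4 arrays. ABHD2 was detected on 1 of the 2 siCTRL arrays, and RHBDL3, GSTZ1 and H2BC5 were detected on neither, so the distances of these 4 genes rest in part on values not above background.

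The genes that work with these proteins were described from 7 lists, in which 158 of 192 genes were detected and none of the 10 genes above is included. Of the 158, 8 rose and 12 fell at an adjusted p under 0.05 (limma, Benjamini-Hochberg over 9435 genes), which is 12.7%, against 14.7% of all genes, made up of 7.76% that rose and 6.94% that fell. This share is near that of the array as a whole and is no result about the lists. Of the genes that passed, 3 that rose (QKI, AGO3 and SAMD4A) and 1 that fell (PARP12) were detected on neither array of the lower group. Such a gene was tested only because the other group was high and its p rests on values not above background, and without them 5 genes rose and 11 fell. Of the 18 genes named below from this test, 17 passed without siCTRL 2, 12 without siCTRL 1, 6 without siPATZ1 1 and 5 without siPATZ1 2. In these fits 1 group has a single array, which is assumed to vary like the 2 arrays of the other. IGF2BP1 and EIF5A2, among the 11 that fell, were detected on 1 of the 2 siPATZ1 arrays, so they too were tested only through siCTRL. With 1 array left out in turn, EIF2S1 had log2 fold changes of -1.23 to -1.13 and MAPK8 -1.29 to -1.14. Of the 18, 7 passed with no detection filter, and the 12 detected on all 4 arrays passed when only such genes were tested. With median scaling in place of quantile normalization 15 of the 18 passed, and LARP4, SMG1 and TRIM25, which had fallen, did not.

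Among the partners of G3BP in condensation, 0 of 17 detected genes rose and 2 fell in limma (11.8%, against 14.7% of all genes). In either direction 4 of the 17 had an unadjusted p under 0.05, against 31.1% of all genes. The median log2 fold change was 0.00. PRRC2B, an RNA-binding protein of stress granules, averaged 8.32 with siPATZ1 (SD 0.0053), against 8.92 with siCTRL (SD 0.11), and fell by 0.61 (SE 0.12, adjusted p = 0.0206). LARP4, which binds poly(A) and PABPC1, had -0.52 (SE 0.12, adjusted p = 0.0289), and -0.61 with its other probe. FXR2 and UBAP2L, at 0.42 and 0.35, did not pass (adjusted p = 0.0787 and 0.0906).

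Of 32 detected RNA-binding proteins that are recruited to granules, 2 rose and 3 fell (15.6%, against 14.7% of all genes). The median of the list was -0.10. IGF2BP1, which stabilises bound messenger RNAs, had 6.05 and 5.66 with siPATZ1, against 6.98 and 7.04 with siCTRL (-1.16 in log2, SE 0.15, adjusted p = 0.00574), and was detected on 1 of the 2 siPATZ1 arrays. PARP12, an interferon-inducible ADP-ribosyltransferase, was not detected on either siPATZ1 array and was at least 1.55-fold lower (adjusted p = 0.00518). ELAVL1, or HuR, which binds AU-rich RNA, had -0.76 (SE 0.15, adjusted p = 0.0178). QKI, a splicing regulator, was not detected on either siCTRL array and was at least 1.18-fold higher (adjusted p = 0.0306), but its other probe had 0.32 and did not pass in its place (adjusted p = 0.186). CELF1 was the other that rose, by 0.48. An "at least" fold sets the detected group's mean against the mean, for the other arrays, of the dimmest detected value on the array or the gene's own value, whichever is higher.

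Of the poly(A)-binding proteins other than PABPC1, with their partners, 0 of 15 genes passed in limma at an adjusted p under 0.05. Among all genes 14.7% passed. In the same fit 5 of the 15 had an unadjusted p under 0.05, against 31.1% of all genes. PABPC3 and PABPC4, close relatives of PABPC1, had -0.40 and 0.36 (adjusted p = 0.0817 and 0.154), and the scaffold EIF4G1, which joins the cap-binding complex to poly(A)-binding protein, had -0.14. The median of the list was -0.13.

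Among genes of processing bodies and messenger RNA decay, 3 of 35 rose and 2 fell (14.3%, against 14.7% of all genes). The median was 0.01. TNRC6A, or GW182, which links Argonaute to deadenylation, had 7.30 and 7.28 with siPATZ1, against 7.99 and 8.13 with siCTRL (-0.77 in log2, SE 0.12, adjusted p = 0.00926). The Argonaute gene AGO1 rose by 0.61 (SE 0.14, adjusted p = 0.0275), and AGO3 was not detected with siCTRL and was at least 1.27-fold higher (adjusted p = 0.0212). SMG1, a kinase of nonsense-mediated decay, had -0.56 (SE 0.13, adjusted p = 0.0292), and LSM4, of the decapping-associated ring, had 0.47 (adjusted p = 0.0372).

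The eIF2alpha list, which covers the signal that most often sets off granules, had 1 of 24 genes higher and 2 lower. Together these were 12.5% of the list, against 14.7% of all genes. EIF2S1, which encodes eIF2alpha itself, had 7.93 and 8.04 with siPATZ1, against 9.11 and 9.22 with siCTRL. The siPATZ1 arrays lay below the siCTRL arrays with no overlap. This was 2.26-fold lower, or -1.18 in log2 (SE 0.12), with an adjusted p of 0.00279 from limma. EIF2AK4, or GCN2, the kinase of eIF2alpha that senses amino acid shortage, had -0.65 (SE 0.12, adjusted p = 0.0153). DDIT3, or CHOP, a target of ATF4, had 0.48 (SE 0.12, adjusted p = 0.0345), while ATF4 itself had 0.09 (adjusted p = 0.673). The median of the list was 0.05.

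Among genes of granule disassembly and regulation, 2 of 22 rose and 2 fell (18.2%, against 14.7% of all genes). The median was 0.03. MAPK8, or JNK1, a stress-activated kinase, had 6.49 and 6.33 with siPATZ1, against 7.60 and 7.67 with siCTRL (-1.23 in log2, SE 0.13, adjusted p = 0.00268), or 2.34-fold lower. SAMD4A, the human relative of the Drosophila RNA-binding repressor Smaug, was not detected on either siCTRL array and was at least 1.36-fold higher (adjusted p = 0.00229). ULK1, an autophagy kinase, rose by 0.61 (SE 0.14, adjusted p = 0.0266). Its other probe had 0.32 and did not pass in limma in its place (adjusted p = 0.133). TRIM25, a ubiquitin ligase, had -0.46 (SE 0.12, adjusted p = 0.0422).

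Of 13 detected partners of HABP4 and SERBP1 on idle ribosomes, 2 had an unadjusted p under 0.05 in limma, in either direction. Among all genes 31.1% did, and the median of the list was 0.08. At an adjusted p under 0.05, 0 rose and 1 fell (7.69%, against 14.7% of all genes). The 1 was EIF5A2, a paralog of the translation factor EIF5A, with 6.37 and 6.12 on the siPATZ1 arrays against 7.20 and 7.34 on the siCTRL arrays (-1.03 in log2, SE 0.14, adjusted p = 0.00591), and it was detected on 1 of the 2 siPATZ1 arrays. EEF2, the elongation factor found on such ribosomes, had -0.17 (adjusted p = 0.401) and EIF5A had 0.08 (adjusted p = 0.726). Interferon-stimulated genes, which a transfected RNA can induce, had 0 of 6 detected genes higher and 2 lower, against 7.76% and 6.94% of all genes, and 3 had an unadjusted p under 0.05, against 31.1%. The 2 were ISG15 with -0.96 (SE 0.14, adjusted p = 0.00662) and IFIH1 with -0.52 (SE 0.13, adjusted p = 0.0375). The 30 probes of that list summed to a signal of 4690 and 4867 with siPATZ1, against 4891 and 5172 with siCTRL. The part of these genes in the results above was not tested.

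**Figure D4:**
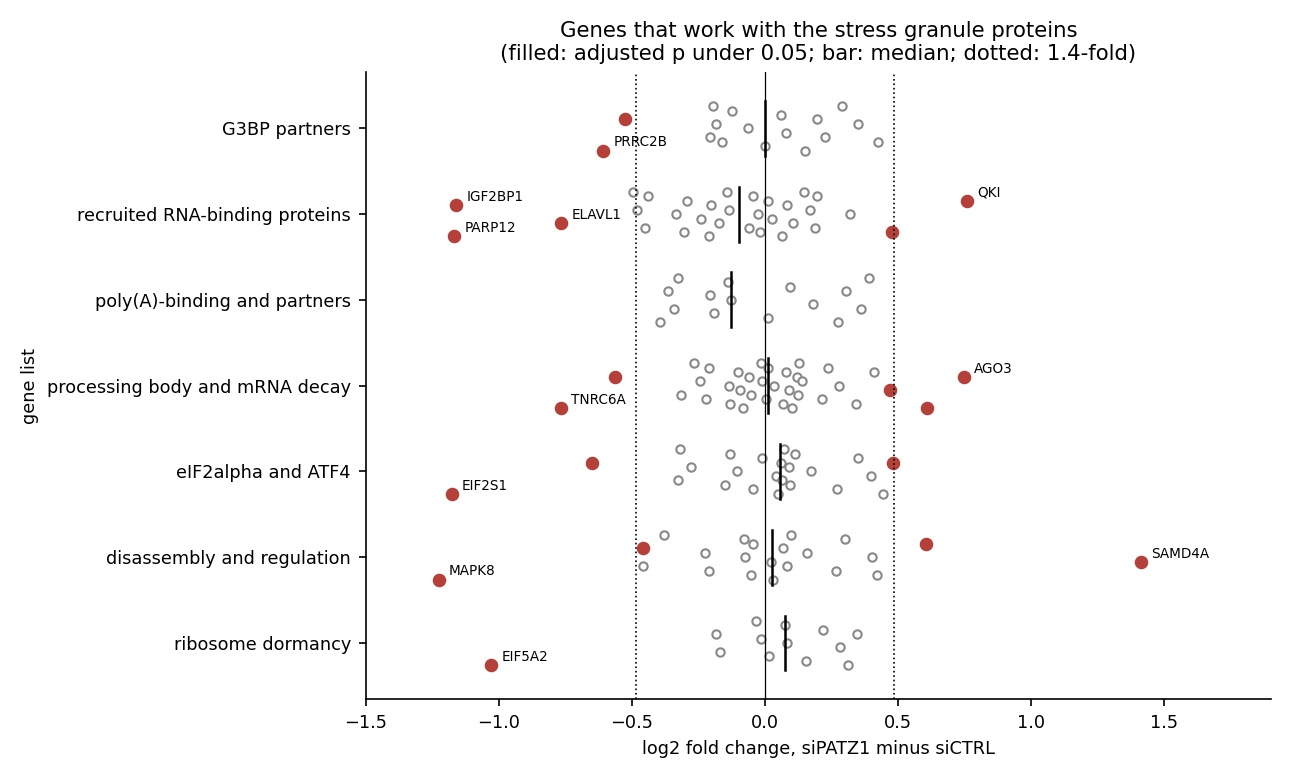
Log2 fold change (siPATZ1 minus siCTRL) of the 158 detected genes of 7 lists, with a point for each gene, filled where limma's adjusted p is under 0.05, a bar for the list's median and dotted lines at 1.4-fold. The 8 filled points on the right and 12 on the left are spread over the lists, the poly(A)-binding list has none, and for genes not detected on 1 group, such as SAMD4A and PARP12, the point is the measured difference and not the bound.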

How the data were processed

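The 4 arrays were grouped by their labels. The authors deposited the bead intensity of 47323 probes, with no background subtraction or normalization, and beside each a detection p-value that ranks it against the negative controls of the array. The authors also deposited these intensities, for 47321 probes, after scaling to 1 mean, which multiplied the siPATZ1 arrays by 0.991 and 0.934 and the siCTRL arrays by 1.03 and 1.05. The submitters' processing notes name GenomeStudio. The number of arrays limits the precision.

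The unscaled intensities were corrected with limma 3.58.1 in R 4.3.3 by its neqc function, that is, normexp with background estimated through the detection p-values, then an offset of 16, quantile normalization and log2. Of the probes, 30112 had 1 gene in the platform annotation, 8 had several and 17203 had none named, and symbols were brought up to date through RefSeq. Probes with a detection p-value under 0.01 on both siPATZ1 arrays or both siCTRL arrays, 15090 in all, were kept. A gene was its brightest kept probe. Differences were fitted with lmFit and eBayes, with 2 residual and 5.73 prior degrees of freedom, and Benjamini-Hochberg adjustment ran over all 9435 genes. The fit was tested on simulated data.

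The members and lists were chosen with earlier results of these data known. The genes named are all members with every probe, up to 4 genes per list with the smallest p among those that passed with no overlap between the groups, and the 3 genes nearest to G3BP2 and to HABP4. CELF1 and LSM4, which also passed, and FXR2, UBAP2L, PABPC3, PABPC4, EIF4G1, ATF4, EEF2, EIF5A, ISG15 and IFIH1 were named after their values were seen. Alternatives changed the background correction, normalization, detection filter, probe choice, design, test and arrays. Protein sequences were not used here.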

Additional observations from a re-analysis of the deposited data

How the results depend on the processing

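G3BP2 and HABP4 were the 2 detected genes of the 8 past 1.4-fold under all 15 alternatives, with log2 fold changes of 1.30 to 1.77 for G3BP2 and 1.38 to 1.95 for HABP4. G3BP2 minus G3BP1 ranged from 1.4 to 1.95, and was 0.99 for the lowest pair of probes, a choice added after seeing the data. TIA1 minus TIAL1 was -0.31 with the dimmest probes, which is also its lowest pair, and ranged from -0.19 to 0.24 with 1 array left out. The differences of HABP4 from SERBP1 and of ATXN2 from ATXN2L were not run.

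Over all genes, 732 rose and 655 fell. The counts were 1338 and 382 with median scaling (77.8% higher, against 52.8%), 190 and 147 with no detection filter, 109 to 992 and 84 to 919 with 1 array left out, and 1491 and 1442 at an unadjusted p under 0.05. The scaled signals gave 1130 higher (63.8% of calls). The methods' t-test after adjustment gave 1 and 0. For the lists, 8 rose and 12 fell. The number that rose was 17 with median scaling, 17 with the scaled signals, 4 at a detection p-value under 0.05, 5 with detection on all 4 arrays, 5 with 1.4-fold alone and 5 with 1.4-fold and the adjusted p. With no filter 1 rose and 6 fell, with 1 array left out 1 to 11 rose and 4 to 15 fell, at an unadjusted p 21 rose and 24 fell, and the methods' t-test after adjustment gave 0 and 0. The cause was not tested.

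With the replicate block, 5 list genes rose. In this balanced design the block cannot change a difference of means. No source says that the numbers pair the arrays, and the deviations of same-numbered arrays had a correlation of -0.05 over genes. With 2 arrays per group, only signal well above background and changes far beyond the spread can be read.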
